A study of Mus musculus with 6 samples.

Results

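The genes described here are 31 genes of mitosis, the stage in which a cell builds a spindle, separates its chromosomes and splits. They were picked by name, as rows of the authors' table of all genes whose symbol equals one on the list, and all 31 were found among the 27179 genes listed. All 31 also passed the filter on low values, which left 13052 genes for testing. The list holds 6 cyclins and kinases of mitotic entry, 6 motors and other builders of the spindle, 4 kinetochore and centromere proteins, 6 genes of the checkpoint and of anaphase, 3 members of the chromosomal passenger complex, 2 cytokinesis genes and 4 genes of chromosome structure.

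RNA was sequenced from organoids of wild-type (WT) mouse small intestine, which are crypt cultures that grow as budding epithelial structures, kept in Matrigel with the medium Intesticult. One group of 3 libraries came from organoids given the active thyroid hormone T3 at 1e-07 M for 17 h, and the other group of 3 from organoids given vehicle for the same 17 h. The comparison asks which transcripts differ after T3. The labels name no separate cultures or animals behind the replicates, so the tests below speak only to differences beyond the scatter of these libraries, and that scatter could be purely technical.

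Entry into mitosis is driven by CDK1 bound to cyclin A2 or a B-type cyclin, with the Aurora and Polo-like kinases acting beside it. Chromosomes attach to spindle microtubules through kinetochores, and the spindle checkpoint holds back the anaphase-promoting complex until every kinetochore is attached, after which securin and cyclin B are destroyed and the cell divides. Most of these genes are transcribed in G2 and M phase, through CCAAT boxes bound by NF-Y and a cell cycle genes homology region (CHR) bound by MuvB complexes, and in the intestine their transcripts come mainly from dividing crypt cells.

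The promoter sequences of 4 genes are shown because they carry the elements that these genes share. They were also picked because their transcripts took different courses with T3. Ube2c was higher, Ttk was lower and Cdk1 differed little. Ccnb2 was 1.08-fold higher, a call that held in only 2 of 6 fits that left out a library. Each sequence runs 5′ to 3′ on the gene's own strand, from RefSeq on GRCm38.p6. It spans 100 bases before the transcription start through the first 30 bases from it. Capitals mark CCAAT boxes (ATTGG where the box lies on the opposite strand) and CHR letters (TTTGAA, or TTCAAA on the opposite strand). The windows are chr2:164769829-164769958 (plus strand) for Ube2c, chr9:70421525-70421654 (minus strand) for Ccnb2, chr9:83834589-83834718 (plus strand) for Ttk and chr10:69352883-69353012 (minus strand) for Cdk1.
Ube2c: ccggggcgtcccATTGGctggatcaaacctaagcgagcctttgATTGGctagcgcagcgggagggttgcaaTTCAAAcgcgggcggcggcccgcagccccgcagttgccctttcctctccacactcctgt
Ccnb2: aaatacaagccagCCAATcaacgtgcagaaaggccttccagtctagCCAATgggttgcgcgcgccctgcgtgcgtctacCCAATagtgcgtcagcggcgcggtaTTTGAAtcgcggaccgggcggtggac
Ttk: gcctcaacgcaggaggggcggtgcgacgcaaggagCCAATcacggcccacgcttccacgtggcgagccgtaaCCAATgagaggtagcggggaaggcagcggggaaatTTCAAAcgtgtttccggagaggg
Cdk1: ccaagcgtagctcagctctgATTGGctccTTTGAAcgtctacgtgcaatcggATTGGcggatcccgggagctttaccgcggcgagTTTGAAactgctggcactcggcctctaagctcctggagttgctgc

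Windows of 250 bases before to 50 bases after a start were matched by symbol for 26 of the 31 genes, leaving out Aurkb, Ccna2, Kif20a, Smc4 and Tpx2. Searched on both strands, CCAAT was found in 22 of the 26 genes (84.6%), against 37.4% of all 32851 promoter windows of the same length. A CHR, written as TTTGAA or TTCGAA, was found in 22 of 26 (84.6%), against 19.2% of all windows. TTTGAA alone was in 80.8% of the genes and 17.9% of all windows, and TTCGAA alone in 11.5% and 1.56%. At least 2 CCAAT boxes together with a CHR occurred in 14 of 26 genes (53.8%), against 2.31% of all windows. A CCAAT box and a CHR shared a base only in Cdca8, where they overlapped by 1 base.

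The positions of the elements were not used in choosing the genes. The 31 CHR copies had a median position of -5 bases from the start, and 21 genes had a copy within 50 bases of it. The 53 CCAAT boxes had a median position of -74 bases. No median positions over all windows were set beside these. In 7 of the 26 genes (Aurka, Ccnb1, Ccnb2, Cdca8, Cdk1, Hmmr and Ube2c) 2 CCAAT boxes lay 30 to 35 bases apart, which was so in 1.64% of all windows. At least 2 CCAAT boxes were present in 57.7% of the 26 genes but in only 11.7% of all windows. Of those with at least 2 boxes, the spacing was found in 7 of 15 genes and in 539 of 3842 windows. In Ccnb2, for example, the boxes began at -87, -54 and -21. No CCAAT or CHR letters were found in the windows of Birc5 and Nusap1. AGGTCA, the half-site letters of nuclear receptors that include the T3 receptors, was in 4 of 26 genes (Anln, Bub3, Ccnb1 and Ttk, 15.4%), against 16.3% of all windows. These matches describe letters in the windows and no binding was measured.

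**Figure D1:**
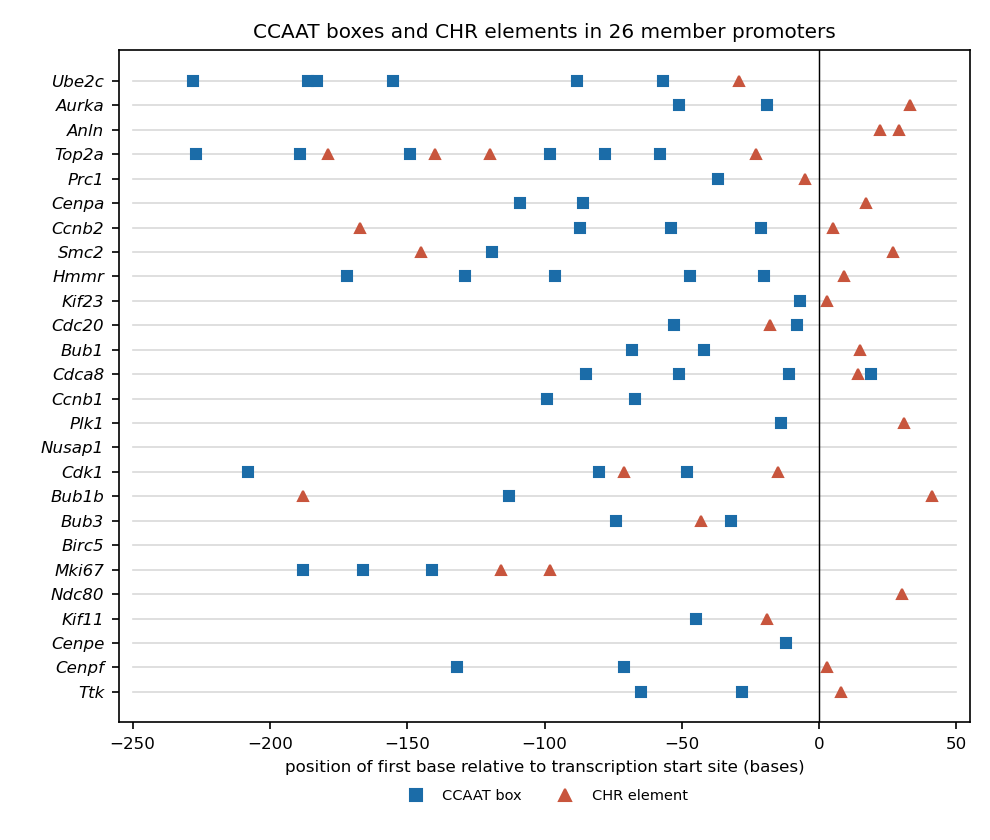
Position of each CCAAT box (squares) and CHR (triangles) in the promoter windows of 26 genes, in bases from the transcription start (vertical line), with genes in order of their log2 fold change, the highest at the top. Of the 31 CHR copies, those of 21 genes include one within 50 bases of the start, and genes with and without a change carry both elements.

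With T3, 7 of the 31 genes rose and 2 fell, and the changes were small. Ube2c rose 1.31-fold, Aurka 1.14-fold, Anln 1.13-fold, Top2a 1.11-fold, Prc1 1.10-fold, Ccnb2 1.08-fold and Cenpa 1.08-fold, while Kif20a was 1.22-fold and Ttk 1.18-fold lower. A gene was called at a Benjamini-Hochberg adjusted p under 0.05 in limma, over all 13052 genes. The 9 called genes are 29.0% of the 31, below the 44.8% of all genes tested that were called. Higher calls were 22.6% of the list against 24.0% of all genes, and lower calls 6.45% against 20.8%. In RNA from whole organoids, a change in the number of dividing cells and a change in RNA per dividing cell cannot be told apart.

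The spread of the 31 genes was narrow. Their median log2 fold change was 0.02, against -0.01 for all genes tested, and the median of the size of the log2 fold change was 0.06, against 0.19. For 27 of the 31 the 95% interval of the fold change lay within 1.25-fold in either direction, which held for 42.2% of all genes tested. It also held for 113 of 133 other mitotic genes tested (85.0%), so it was not particular to the 31. The median SE of the log2 fold change was 0.043 for the 31 and 0.066 for all genes tested, and genes of matched level were not compared. The 4 exceptions were Ube2c, Kif20a, Ttk and Cenpf, and all 31 intervals lay within 1.5-fold. Groups did not overlap for 12 of the 31 (38.7%), 9 of them higher with T3 and 3 lower, against 54.9% of all genes (28.4% higher and 26.5% lower). Together the 31 genes took 0.524% ± 0.0175 of normalized reads in the T3 libraries and 0.535% ± 0.0234 in the vehicle libraries (SD, n = 3 each). Their summed normalized reads had the opposite order, at 156204 ± 3948 in the T3 libraries and 152379 ± 7664 in the vehicle libraries. The largest parts of these sums were Top2a, with means of 24565 (T3) and 22126 (vehicle), and Mki67, with 19229 and 19748. Mki67 was at 24341 in vehicle replicate 1, against 16476 and 18428 in the other vehicle libraries.

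The direction of the small changes depended on the scaling between libraries. The log2 fold change was positive for 19 of the 31 genes with the deposited scaling, for 11 with upper-quartile scaling and for 8 with equal column totals, while the median of all genes moved to -0.06 and -0.08 under these. Of all calls, 53.6% were higher with the deposited scaling, 40.4% with upper-quartile scaling and 38.7% with equal totals. Aurka, Ube2c and Anln were called higher and Kif20a and Ttk lower under all 3 scalings. These 5 were also called without any single library and under every other setting tried at the 0.05 threshold. Prc1 was called without any single library, but not under upper-quartile scaling or equal totals.

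**Figure D2:**
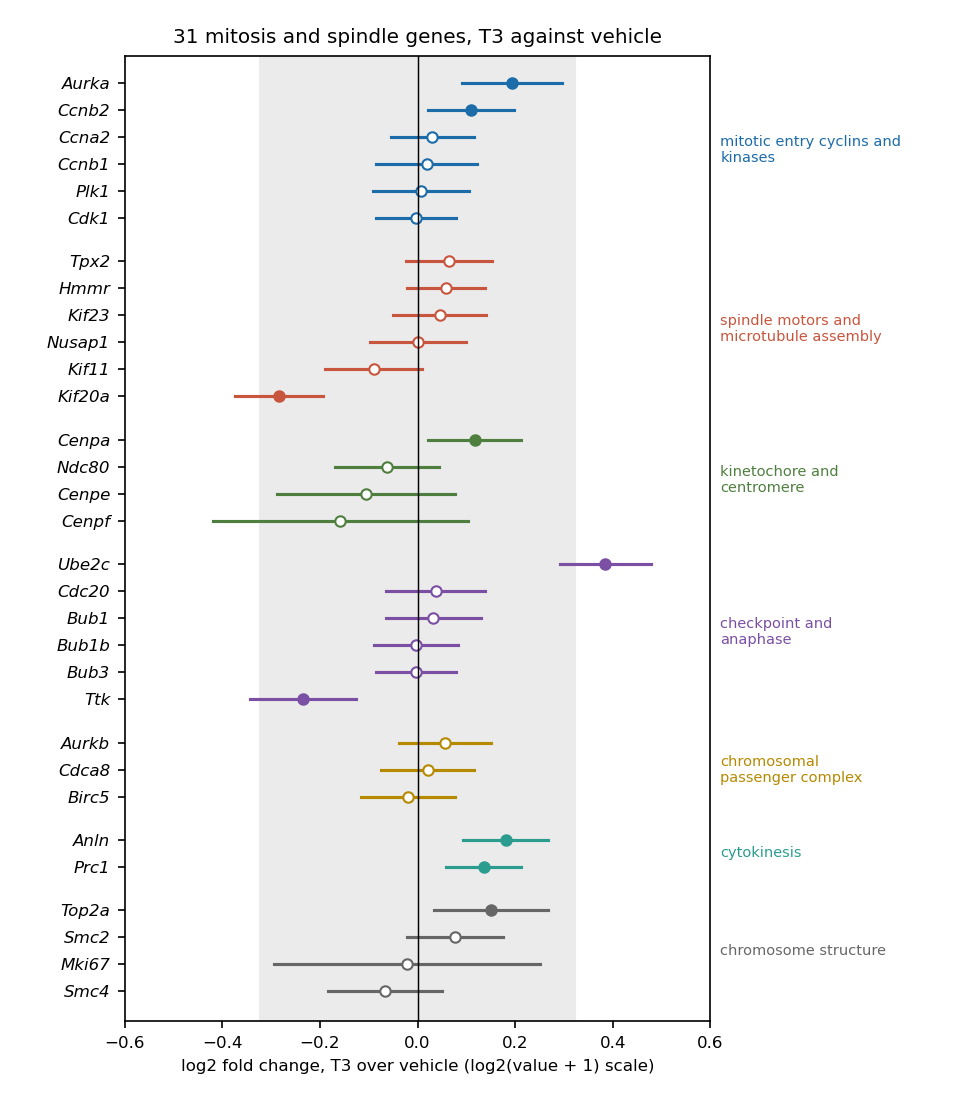
Log2 fold change of T3 over vehicle for the 31 genes, grouped by role, with 95% limma intervals (n = 3 libraries per group); filled points passed the test and the grey band marks 1.25-fold in either direction. The intervals of 27 genes lie inside the band, Ube2c stands above and Kif20a below the other genes.

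By the authors' deposited table, adjusted p was under 0.05 for 5 of the 31 genes with a higher value after T3 (Aurka, Ube2c, Prc1, Anln and Top2a) and for 2 with a lower one (Kif20a and Ttk). That is 22.6%, against 35.1% of the 14398 genes with an adjusted p in the authors' deposited table, 19.3% higher and 15.8% lower. Ccnb2 had an adjusted p of 0.136 in the authors' deposited table.

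Among the cyclins and kinases of mitotic entry, Aurka and Ccnb2 rose and the other 4 did not pass the test. Aurora kinase A, which matures centrosomes and activates the Polo-like kinase, had 3165, 3153 and 3093 normalized reads in the T3 libraries, against 2697, 2629 and 2913 in the vehicle libraries. Every T3 library lay above every vehicle library, with a log2 fold change of 0.19 ± 0.05 (SE) and adjusted p = 0.00681. Ccnb2, a B-type cyclin partner of CDK1, had 3036, 2989 and 2918 in the T3 libraries, against 2681, 2778 and 2834 in the vehicle libraries. The groups did not overlap (log2 fold change 0.11 ± 0.04, adjusted p = 0.0473). That call was lost without T3 replicate 1 (adjusted p = 0.162), T3 replicate 2 (0.115), vehicle replicate 1 (0.121) or vehicle replicate 2 (0.104). It was also lost under upper-quartile scaling (0.317), equal totals (0.403), scaling by the median of ratios over the genes tested (0.0531), no filter on low values (0.0584) and no mean-variance trend (0.0861).

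The other genes of mitotic entry overlapped between groups. Cdk1, the kinase that drives entry, had 4925, 4818 and 4964 in the T3 libraries, against 4886, 4810 and 5042 in the vehicle libraries, and its fold change had a 95% interval of 0.943 to 1.06. Ccnb1, the main B-type cyclin, had 2132, 2209 and 2291 with T3 and 2248, 2213 and 2087 with vehicle (interval 0.943 to 1.09). The 2 groups interleaved in both genes. Ccna2, the A-type cyclin of S and G2 phase, had 7544, 7585 and 7874 in the T3 libraries, against 7722, 7374 and 7437 in the vehicle libraries (interval 0.963 to 1.08). Plk1, the Polo-like kinase, had 3889, 3679 and 3951 in the T3 libraries and 3750, 3738 and 3977 in the vehicle libraries (interval 0.939 to 1.08). Per kilobase of exon, Ccna2 was the highest of these 6, at 2728 normalized reads in T3 libraries and 2672 in vehicle libraries.

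Of the spindle motors and assembly factors, Kif20a fell and the other 5 did not pass the test. KIF20A is a kinesin of the central spindle that is needed for cytokinesis. Kif20a had 3151, 3048 and 3295 normalized reads in the T3 libraries, against 3846, 3871 and 3840 in the vehicle libraries. The vehicle libraries lay close together and above all T3 libraries, and the log2 fold change was -0.28 ± 0.04 (SE), adjusted p = 0.00034. Kif20a shares 1115 of its 3905 exon bases (28.6%) with Cdc23 on the opposite strand, and 187 with Brd8. Cdc23, a subunit of the anaphase-promoting complex, averaged 1769 in T3 libraries and 1949 in vehicle libraries, and how much of the Kif20a difference lies in shared bases was not tested. Opposite-strand overlaps also touch Ccna2 (378 bases with Exosc9), Nusap1 (208 with Oip5) and Cdc20 (16 with Elovl1), 4 of the 31 genes in all, and without a stated strand setting such reads cannot be told apart.

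The other kinesins and spindle proteins differed less. Kif11, the plus-end motor that pushes spindle poles apart, had 6508, 6651 and 7002 in the T3 libraries, against 7448, 6889 and 7120 in the vehicle libraries (log2 fold change -0.09 ± 0.04, adjusted p = 0.127). Kif11 passed as lower without T3 replicate 3 (adjusted p = 0.0499), with upper-quartile scaling and with equal totals. Kif23, a kinesin of the centralspindlin complex, had 3167, 3370 and 3138 with T3 and 3193, 3042 and 3139 with vehicle (95% interval of the fold change 0.966 to 1.10). Among these, only Kif11 changed its call in any setting.

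TPX2 activates Aurora kinase A on spindle microtubules. Tpx2 had 4237, 3979 and 4076 in the T3 libraries, against 3969, 3820 and 3967 in the vehicle libraries, with no overlap but adjusted p = 0.218. Hmmr, whose product helps to organise spindle poles, had 3206, 3252 and 3213 with T3 and 3152, 3098 and 3039 with vehicle, again without overlap and with adjusted p = 0.219. Neither passed the test, and the intervals were 0.983 to 1.11 for Tpx2 and 0.985 to 1.10 for Hmmr. Nusap1, which binds and bundles spindle microtubules, had 3172, 3100 and 3081 in the T3 libraries, against 3141, 2959 and 3254 in the vehicle libraries (interval 0.935 to 1.07).

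Of the kinetochore and centromere genes, Cenpa passed the test as higher. CENP-A is the histone H3 variant that marks centromeres. Cenpa had 2795, 2679 and 2602 in the T3 libraries, against 2417, 2493 and 2535 in the vehicle libraries (log2 fold change 0.12 ± 0.04, adjusted p = 0.0475). The call held without T3 replicate 3 (adjusted p = 0.0267) and was lost without each of the other libraries. Those adjusted p were 0.188 without T3 replicate 1, 0.0987 without T3 replicate 2, 0.114 without vehicle replicate 1, 0.103 without vehicle replicate 2 and 0.0548 without vehicle replicate 3. Cenpa also lost its call under upper-quartile scaling (0.275), equal totals (0.345), the median of ratios (0.0528), no filter (0.063) and no trend (0.0904). Ndc80, a subunit of the complex that holds microtubules at the outer kinetochore, had 1101, 1068 and 1028 with T3 and 1121, 1102 and 1117 with vehicle. The groups did not overlap, but the log2 fold change of -0.06 ± 0.05 had adjusted p = 0.308, and Ndc80 passed as lower only with equal column totals.

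Cenpe and Cenpf had the widest vehicle values of the kinetochore group. Cenpe, a kinetochore kinesin that moves chromosomes to the spindle equator, had 4062, 4039 and 4414 in the T3 libraries, against 5159, 4022 and 4347 in the vehicle libraries. Cenpf, a large outer kinetochore protein, had 2898, 2873 and 3295 in the T3 libraries, against 4175, 2893 and 3156 in the vehicle libraries. In both genes vehicle replicate 1 was the highest of the 6 libraries and the other vehicle libraries overlapped the T3 libraries. Their adjusted p-values were 0.321 and 0.302, and without vehicle replicate 1 the log2 fold changes were -0.0045 and -0.0027.

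The checkpoint and anaphase genes held the largest rise of the list and 1 of its 2 falls. UBE2C is the ubiquitin-conjugating enzyme that works with the anaphase-promoting complex. Ube2c had 7219, 7320 and 7044 normalized reads in the T3 libraries, against 5324, 5440 and 5776 in the vehicle libraries. The lowest T3 library lay well above the highest vehicle library, and the log2 fold change was 0.38 ± 0.04 (SE), adjusted p = 6.03e-05 (95% interval 1.22-fold to 1.39-fold). Ube2c was also the highest of the 31 per kilobase of exon, at 7728 normalized reads in T3 libraries and 5922 in vehicle libraries.

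Ttk encodes MPS1, the kinase that starts checkpoint signalling at unattached kinetochores. Ttk had 1183, 1254 and 1250 in the T3 libraries, against 1504, 1406 and 1429 in the vehicle libraries. The groups did not overlap (log2 fold change -0.23 ± 0.05, adjusted p = 0.00333). Per kilobase, Ttk stood second from the bottom of the list, at 394 with T3 and 464 with vehicle.

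The remaining checkpoint genes lay between the extremes of Ube2c and Ttk and did not pass the test. Bub1, a checkpoint kinase of the kinetochore, had 2272, 2307 and 2273 in the T3 libraries, against 2342, 2204 and 2157 in the vehicle libraries. Bub1b, which encodes the checkpoint protein BUBR1, had 4401, 4515 and 4470 with T3 and 4542, 4304 and 4575 with vehicle. Groups overlapped in both. Bub3, the partner that brings BUB1 and BUBR1 to kinetochores, had 4164, 4133 and 4327 in the T3 libraries, against 4266, 4207 and 4179 in the vehicle libraries. Cdc20, the activator of the anaphase-promoting complex that the checkpoint inhibits, had 4065, 3844 and 4084 in the T3 libraries, against 3737, 3873 and 4080 in the vehicle libraries. The 95% intervals of these 4 fold changes ran from 0.94 at the lowest to 1.10 at the highest.

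None of the 3 measured genes of the chromosomal passenger complex, which corrects faulty attachments and then moves to the midzone, passed the test. Aurkb, its kinase, had 2830, 2841 and 2788 in the T3 libraries, against 2629, 2671 and 2841 in the vehicle libraries (adjusted p = 0.307). Birc5, which encodes survivin, had 3115, 3033 and 3284 with T3 and 3150, 3134 and 3274 with vehicle (adjusted p = 0.74). Cdca8, which encodes borealin, had 3082, 3149 and 3257 in the T3 libraries, against 3016, 3104 and 3237 in the vehicle libraries (adjusted p = 0.728). The groups overlapped in all 3, and the intervals of the fold change were 0.974 to 1.11 for Aurkb, 0.923 to 1.05 for Birc5 and 0.95 to 1.08 for Cdca8. The 2 Aurora kinases thus had different outcomes in the test, but the difference between their changes was not tested.

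Both cytokinesis genes rose, although Prc1 did not pass under upper-quartile scaling or equal totals. PRC1 bundles antiparallel microtubules at the spindle midzone, and Prc1 had 4657, 4674 and 4697 normalized reads in the T3 libraries, against 4190, 4263 and 4320 in the vehicle libraries. Its T3 libraries lay within 1 narrow range above all vehicle libraries (log2 fold change 0.14 ± 0.03, adjusted p = 0.01). Anillin is a scaffold of the contractile ring, and Anln had 3196, 3275 and 3265 in the T3 libraries, against 2890, 2773 and 2931 in the vehicle libraries. These groups did not overlap either (log2 fold change 0.18 ± 0.04, adjusted p = 0.00407). Kif20a and Kif23, grouped here with the motors, also act in cytokinesis, and neither rose: Kif20a fell and Kif23 did not pass the test.

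**Figure D3:**
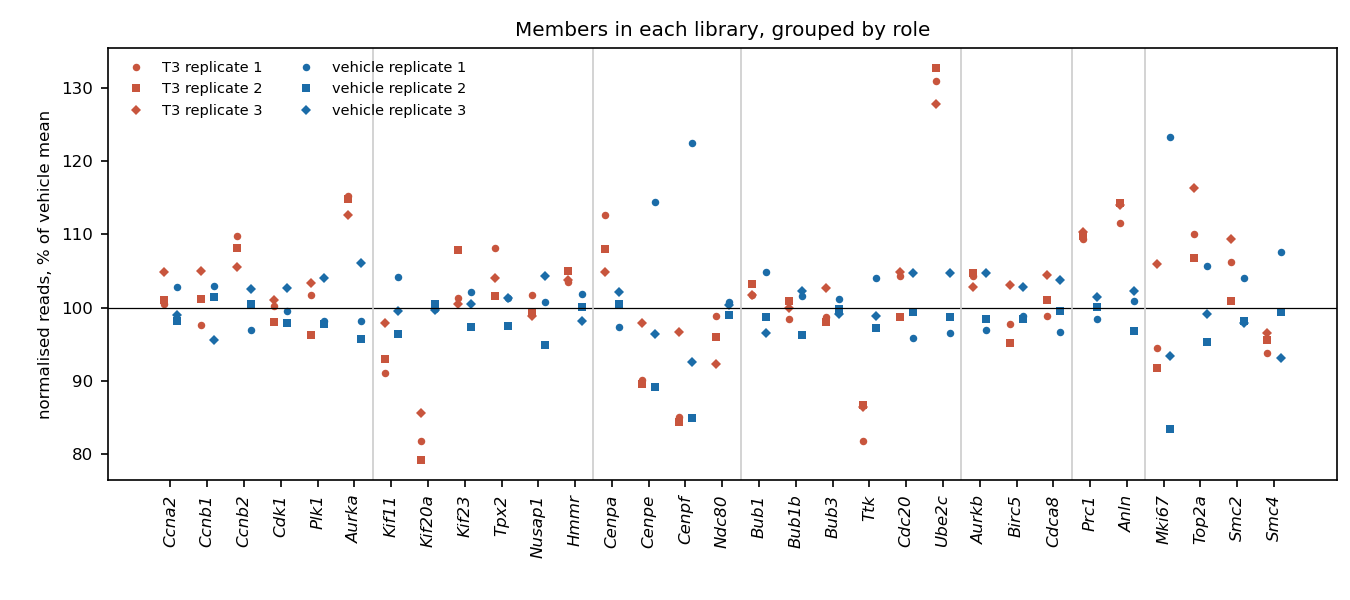
Each of the 31 genes in each of the 6 libraries, as a percentage of its vehicle mean, with T3 libraries in red left of vehicle libraries in blue and grey lines between roles. The T3 libraries of Ube2c stand highest and those of Kif20a and Ttk lie below their vehicle libraries, while vehicle replicate 1 stands apart for Cenpe, Cenpf and Mki67.

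Of the genes of chromosome structure, Top2a passed the test. Topoisomerase IIα untangles sister DNA, and Top2a had 24355, 23615 and 25726 normalized reads in the T3 libraries, against 23367, 21082 and 21929 in the vehicle libraries. The groups did not overlap (log2 fold change 0.15 ± 0.05, adjusted p = 0.0388), but vehicle replicate 1 came close to the T3 libraries. The call was lost without T3 replicate 1 (adjusted p = 0.0924), T3 replicate 3 (0.0887), vehicle replicate 2 (0.145) or vehicle replicate 3 (0.0866), and also under upper-quartile scaling (0.141), equal totals (0.198), no filter (0.0632) and no trend (0.0876). Mki67, whose Ki-67 protein coats mitotic chromosomes and is the usual marker of dividing cells, had 18653, 18112 and 20923 in the T3 libraries, against 24341, 16476 and 18428 in the vehicle libraries. Its vehicle libraries held both the highest and the lowest of the 6 values, and the 95% interval of the fold change was 0.816 to 1.19 (adjusted p = 0.904). Without vehicle replicate 1 the log2 fold change of Mki67 was 0.14, with adjusted p = 0.151.

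Smc2 and Smc4 encode the core ATPase pair of the condensins, which compact chromosomes. Smc2 had 5081, 4829 and 5233 in the T3 libraries, against 4980, 4695 and 4683 in the vehicle libraries (adjusted p = 0.187). Smc4 had 7584, 7721 and 7796 in the T3 libraries, against 8695, 8032 and 7520 in the vehicle libraries (adjusted p = 0.323). Groups overlapped in both genes, and the fold changes had intervals of 0.985 to 1.13 and 0.88 to 1.03.

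Levels per kilobase of deposited exon length, a rough scale for comparing genes, differed far more between these genes than between treatments. The length of the transcripts expressed was not measured. In the vehicle libraries the median over the 31 was 1387 normalized reads per kilobase, against 296.5 over all genes tested. Ube2c stood first and Top2a second, at 4709 in T3 libraries and 4241 in vehicle libraries, and Cenpf stood last, at 272 in T3 libraries and 306 in vehicle libraries. Ube2c is also the shortest and Cenpf the longest of the 31, and the part of length in this order was not tested. Neighbours in this order were often close: Plk1 at 1743 in T3 libraries and 1735 in vehicle libraries stood next to Cdk1 at 1714 in T3 libraries and 1718 in vehicle libraries.

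The 3 longest transcripts of the list were high in vehicle replicate 1. Relative to the mean of the other vehicle libraries, vehicle replicate 1 was 39.5% higher for Mki67 (10075 exon bases), 38.0% for Cenpf (11130) and 23.3% for Cenpe (7813). The next in length differed less, at 1.33% for Anln (5421), 6.20% for Smc2 (5322), 8.66% for Top2a (5217) and 6.33% for Kif11 (4819), while the shorter Smc4 (4082) reached 11.8%. For Ube2c, the shortest at 931 bases, it was -5.06%. For the next shortest, Cenpa (1337) and Ccnb2 (1541), it was -3.86% and -4.45%. Over the 31 genes the rank correlation between exon length and this difference was 0.833, and over 8163 tested genes with a vehicle mean of at least 500 it was 0.468, both across genes that share the same libraries. In that wider set the median log2 difference was -0.06 for genes under 1 kb (550 genes) and 0.20 for genes over 7.5 kb (504 genes). T3 replicate 3, set against the other T3 libraries in the same way, had medians of -0.01 and 0.06 in these classes, and 0.19 for both Cenpf and Mki67. The median log2 fold change of T3 over vehicle was 0.04 in the shortest class and -0.03 in the longest. The part of length in the called differences was not tested beyond leaving libraries out. Without vehicle replicate 1, Ccnb2 and Cenpa, the shortest genes after Ube2c, lost their calls, and the other 7 called genes remained called.

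**Figure D4:**
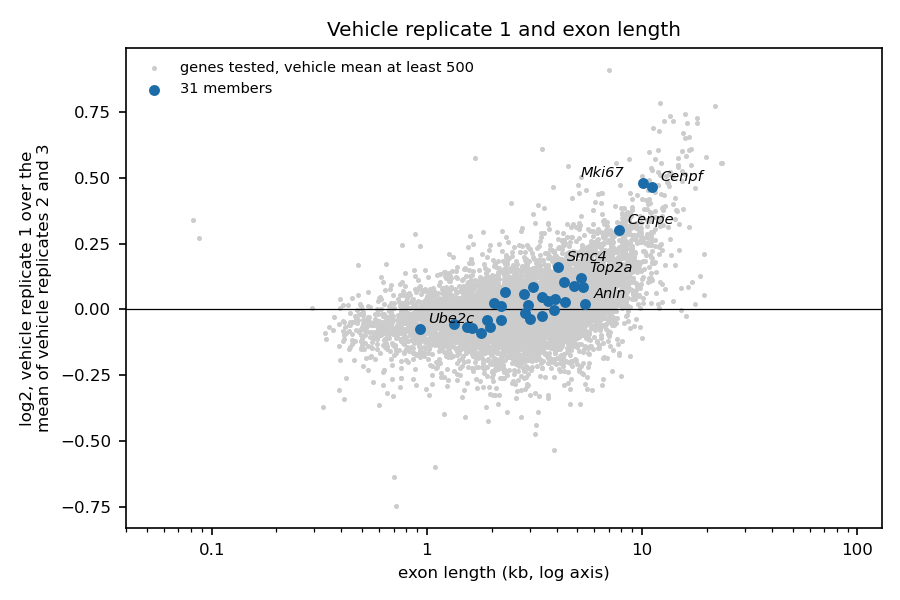
Log2 ratio of vehicle replicate 1 to the mean of vehicle replicates 2 and 3, against exon length in kilobases on a log axis, for tested genes with a vehicle mean of at least 500 (grey) and the 31 genes (blue). Mki67 and Cenpf, the longest of the 31, stand highest among them and Ube2c, the shortest, lies below 0.

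A wider set of 134 other mitotic genes in 7 lists was set beside the 31, of which 133 were tested. In it 14 rose (10.5%) and 20 fell (15.0%), against 24.0% higher and 20.8% lower of all genes tested, and the median log2 fold change was -0.04. These shares over all genes are the background for the counts of each list that follows with the deposited scaling. Without T3 replicate 1 the counts were 6 higher and 9 lower, without T3 replicate 2 there were 10 lower, and without T3 replicate 3 there were 30 lower. In the same fits 34.8%, 37.2% and 45.6% of all genes tested were called. Under upper-quartile scaling the counts in the wider set were 5 higher and 41 lower, and with equal totals 2 higher and 41 lower. Calls over all genes moved the same way. With the deposited scaling 44.8% were called, and 53.6% of those calls were higher. Under upper-quartile scaling 47.7% were called, with 40.4% of the calls higher, and with equal totals 48.4%, with 38.7% higher. Those shares are the background for the counts given below under these scalings.

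Among other spindle genes 1 of 19 rose (5.26%) and 5 fell (26.3%). Numa1, which tethers microtubules at spindle poles, had 6887, 6439 and 6957 normalized reads in the T3 libraries, against 8427, 7937 and 8165 in the vehicle libraries, 1.21-fold lower. Kif15, a motor that acts beside KIF11, was 1.22-fold lower, with 2089, 2071 and 2193 in the T3 libraries and 2841, 2507 and 2401 in the vehicle libraries. Ckap2, a spindle-associated protein, was 1.13-fold lower. In each of these 3 genes no T3 library reached a vehicle library. Dlgap5, which stabilises spindle microtubules, was 1.11-fold higher, a call lost without T3 replicate 1 (adjusted p = 0.0566). Upper-quartile scaling and equal totals each gave 0 higher and 6 lower in this list.

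In the wider kinetochore list 1 of 31 rose (3.23%) and 2 fell (6.45%). Hjurp, the chaperone that loads CENP-A at centromeres, had 2040, 1951 and 1997 in the T3 libraries, against 2670, 2631 and 2801 in the vehicle libraries (1.35-fold lower, adjusted p = 2.8e-05). Hjurp was thus lower with T3, and Cenpa, which encodes its client, was not. Cenph was 1.24-fold lower, and Cenpu was 1.14-fold higher. The Cenpu call held without vehicle replicate 1 and was lost without each other library, with adjusted p of 0.0655 to 0.126. Under upper-quartile scaling or equal totals this list held 0 higher and 10 lower.

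Among 21 further checkpoint and anaphase genes 1 rose (4.76%) and 4 fell (19.0%). Pttg1, which encodes securin, the inhibitor of separase, had 371, 333 and 325 in the T3 libraries, against 222, 250 and 237 in the vehicle libraries, 1.45-fold higher with adjusted p = 0.00086. Espl1, which encodes separase, was 1.13-fold lower, a call lost without T3 replicate 1, T3 replicate 2 or vehicle replicate 3, with adjusted p of 0.061 to 0.0701. Anapc5, a subunit of the anaphase-promoting complex, had 7339, 7085 and 7368 in the T3 libraries, against 8708, 8753 and 8684 in the vehicle libraries, 1.20-fold lower. Anapc7, another subunit, was 1.15-fold lower. Ube2c, the enzyme that serves this complex, was higher in the same libraries. These 2 subunits were named for their small p, and 16 of the 21 genes were not called. Under upper-quartile scaling or equal totals 1 of these 21 was higher and 8 were lower.

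Of 10 other genes of the passenger complex and cytokinesis 5 rose (50%, against 24.0% of all genes tested) and none fell (against 20.8%), with a median log2 fold change of 0.11. Racgap1, the partner of KIF23 in centralspindlin, had 4443, 4488 and 4620 in the T3 libraries, against 4041, 3980 and 4067 in the vehicle libraries, 1.12-fold higher. Rhoa, the GTPase that starts the contractile ring and acts in many other processes, was 1.11-fold higher. Gsg2, which encodes haspin, the kinase that recruits the passenger complex to centromeres, was 1.20-fold higher. This count depended on scaling, with 3 higher and 2 lower under upper-quartile scaling and 1 higher and 2 lower with equal totals. The call of Rhoa was lost under both and that of Racgap1 under equal totals.

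Among 17 other condensin and cohesin genes none rose and 3 fell (17.6%): Smc3 (1.12-fold), Stag1 (1.10-fold) and Smc1a (1.09-fold), all cohesin subunits. Each was lost without T3 replicate 1, T3 replicate 2 or vehicle replicate 1, Stag1 also without vehicle replicate 2 and Smc1a also without vehicle replicate 3. The adjusted p then reached 0.0778 for Smc3, 0.141 for Stag1 and 0.158 for Smc1a. Under upper-quartile scaling or equal totals 6 of the 17 were lower.

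Of 15 tested kinases, phosphatases and related genes of mitotic entry 4 rose (26.7%) and 3 fell (20%). Wee1, the kinase that restrains CDK1, had 1857, 1717 and 1926 in the T3 libraries, against 2355, 2209 and 2269 in the vehicle libraries, 1.24-fold lower. Cdc25b, a phosphatase that activates CDK1, was 1.16-fold lower, whereas Cdc25c, of the same family, was 1.15-fold and the centrosomal kinase gene Nek2 1.12-fold higher. Mastl, the Greatwall kinase, was 1.14-fold lower and Cdca3 1.09-fold higher. Without T3 replicate 1 the adjusted p was 0.0538 for Cdc25c and 0.0544 for Nek2. Mastl held only without vehicle replicate 3 and otherwise had adjusted p of 0.0782 to 0.13, and Cdca3 was lost without T3 replicate 1 or 2 or vehicle replicate 1 or 2 (0.0527 to 0.144). Under upper-quartile scaling or equal totals 0 of the 15 were higher and 4 were lower, and Ccnb3 was listed at 0 in every library.

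Of 20 genes that control mitotic transcription 2 rose (10.0%) and 3 fell (15.0%). Foxm1, the forkhead factor that works with MuvB at CHR promoters, had 3166, 3190 and 3092 in the T3 libraries, against 2881, 2818 and 3065 in the vehicle libraries. Its groups did not overlap, with adjusted p = 0.0626, and it passed without vehicle replicate 3 (adjusted p = 0.0224). Mybl2, which encodes B-MYB, had 1415, 1268 and 1346 with T3 and 1371, 1331 and 1456 with vehicle (adjusted p = 0.538). Nfyc, a subunit of NF-Y, was 1.14-fold and Lin9, a MuvB subunit, 1.13-fold higher, and Rbbp4 (1.11-fold), Trp53 (1.14-fold) and E2f4 (1.10-fold) were lower. Lin9 was lost without T3 replicate 1 or 3 or vehicle replicate 2 or 3 (adjusted p up to 0.0582), and Rbbp4 without T3 replicate 1 or 2 or vehicle replicate 3 (up to 0.0809). Trp53 and E2f4 were lost without T3 replicate 1 or 2 or vehicle replicate 2 or 3, with adjusted p up to 0.0873 for Trp53 and 0.153 for E2f4. Upper-quartile scaling gave 1 higher and 5 lower of these 20, and equal totals 0 higher and 5 lower. Cdkn1a, which encodes the CDK inhibitor p21, had 2780, 3148 and 2075 in the T3 libraries, against 2137, 2467 and 2594 in the vehicle libraries (adjusted p = 0.436), and it passed as higher without T3 replicate 3 (adjusted p = 0.0144).

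The S phase genes of the same organoids held mostly falls. Of 46 genes of DNA replication and S phase 2 rose (4.35%) and 26 fell (56.5%), 60.9% called, against 24.0% higher, 20.8% lower and 44.8% called over all genes tested. Their median log2 fold change was -0.16, against 0.02 for the 31 mitosis and spindle genes and -0.01 for all genes tested. The difference between the lists was not tested. Under upper-quartile scaling 2 of the 46 were higher and 34 lower, and with equal totals 2 and 35. Mcm6, a subunit of the replicative helicase, had 6899, 6659 and 7279 in the T3 libraries, against 8319, 8042 and 8298 in the vehicle libraries, 1.18-fold lower. Rfc3, a subunit of the clamp loader, was 1.45-fold and Uhrf1, which maintains DNA methylation, 1.20-fold lower. The exceptions that rose were Rrm2, the small subunit of ribonucleotide reductase (1.58-fold), and Cdc45, a helicase cofactor (1.18-fold).

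**Figure D5:**
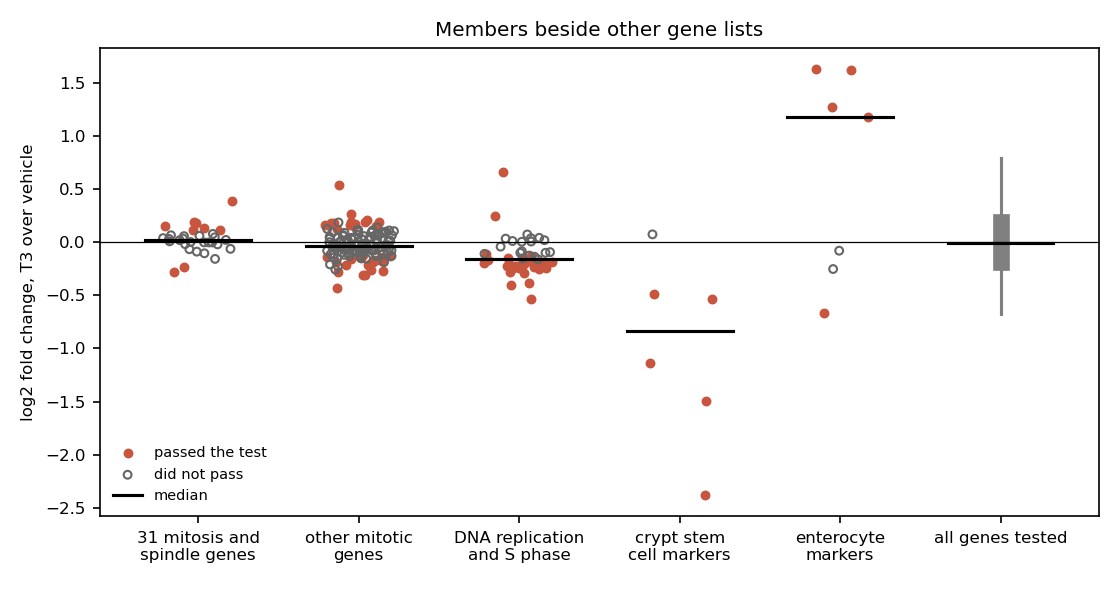
Log2 fold change of T3 over vehicle for each tested gene of 5 lists, with the median as a bar and genes that passed the test filled; the box for all genes tested spans the 25th to 75th percentile and the whisker the 5th to 95th. The 31 genes centre on 0.02, the S phase genes on -0.16 and the crypt stem cell markers on -0.84.

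Transcripts of crypt stem cell and enterocyte markers differed between the groups. Of 6 crypt stem cell markers 5 fell, and their summed level was 66822 to 75545 normalized reads in T3 libraries and 95514 to 110737 in vehicle libraries. Lgr5, the receptor that marks crypt stem cells, had 2093, 2469 and 1658 in the T3 libraries, against 5094, 4285 and 4140 in the vehicle libraries, 2.19-fold lower with adjusted p = 8.29e-05. Of 7 enterocyte markers 4 rose and 1 fell, with sums of 67004 to 79201 in T3 libraries and 41472 to 44783 in vehicle libraries. The highest value of 1 gene in 1 library was 39662 in the enterocyte list and 48640 in the crypt stem cell list. A single gene can thus make up a large part of a sum. Of 5 Paneth cell markers 1 rose, of 5 goblet cell markers 1 rose, and of 5 enteroendocrine markers none was called, and the sums of all 3 lists were lowest in T3 replicate 3. The part of these differences in the values of the 31 genes was not tested.

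Epithelial identity and the treatment were both visible in the libraries. All 6 markers of intestinal epithelium were tested, with sums of 160519 to 165005 in T3 libraries and 131025 to 136608 in vehicle libraries. Of these 6, 5 were called higher with T3 (83.3%, against 24.0% of all genes tested), so their level differed between the groups. Sums were 6 to 22 in T3 libraries and 7 to 27 in vehicle libraries for 6 fibroblast and smooth muscle markers, with none of the 6 passing the filter on low values. For 6 immune markers, of which 1 was at 0 throughout, they were 39 to 65 in T3 libraries and 48 to 57 in vehicle libraries. For 5 endothelial and blood markers, of which 4 were at 0 throughout, they were 7 to 9 in T3 libraries and 12 in each vehicle library. Klf9, a direct target of T3 receptors, had 2080, 2201 and 2151 in the T3 libraries, against 362, 329 and 366 in the vehicle libraries. Thra, which encodes the T3 receptor alpha, was 1.66-fold lower with T3. Column totals were 29510422 to 29974091 normalized reads in T3 libraries and 28197080 to 28611883 in vehicle libraries.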

How the data were processed

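STAR, Subread and DESeq2 are named without versions in the submitters' processing notes. Libraries were directional per the labels' protocols, but whether reads were counted by strand is not stated there. The build is mm10 per the file headers. The authors' deposited sample columns are a normalized score: each gene's reads after scaling of the libraries, as whole numbers. The authors' mean column lies within 0.833 of their mean in every gene. They are not raw counts, so no count model was used and the size of each library in reads is unknown. Log2 fold changes and p-values of the authors' own comparison, and exon lengths, stand in the same deposited table.

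The 13052 genes that reached 10 normalized reads in 3 or more of 6 libraries were tested in limma 3.58.1 (R 4.3.3) on log2(value + 1), with the mean-variance trend and Benjamini-Hochberg adjustment over all of them. Fold changes are on that scale. The test was checked on simulated independent counts of a fixed spread, with 200 genes changed. That simulation had fewer changed genes than were called here and no length-linked shift between libraries, so it cannot vouch for the small calls. Levels per kilobase used the deposited exon length. Replicates were kept apart. The squared difference between replicates over their sum averaged 4.89 to 14.9 per gene across pairs within a group. As the values are scaled and not raw counts, this cannot tell how far the scatter exceeds sampling noise. All 31 genes are named. Of each other list, up to 3 called genes with the smallest p in each direction are named, and Foxm1, Mybl2, Cdkn1a, Lgr5, Klf9 and Thra always. The genes and lists were chosen with earlier results of these data known. Ccnb3, Cdc23 and genes overlapping the 31 were named outside this rule after their values were seen. Alternatives were other scalings, filters, pseudocounts, variance models and thresholds, a replicate block, and leaving out each library. Promoters are RefSeq sequences on GRCm38.p6.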

Additional observations from a re-analysis of the deposited data

How the results depend on the processing

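Among the 31 genes no direction of a called gene reversed in any alternative. The 7 higher genes became 3 under upper-quartile scaling, equal column totals or an adjusted p under 0.01, and 4 with no filter on low values, no mean-variance trend or the replicate block, and 5 with the median of ratios over the genes tested. The 2 lower genes became 4 with equal totals. Leaving out single libraries gave 4 to 6 higher and 2 to 3 lower. The median log2 fold change of 0.02 became -0.036 under upper-quartile scaling and -0.046 with equal totals. For the other mitotic genes the 14 higher became 5, 2 and 5 under upper-quartile scaling, equal totals and an adjusted p under 0.01, and 6 to 16 without single libraries. The 20 lower became 41, 41 and 9 under those settings, 10 with no trend, and 9 to 30 without single libraries. Their median of -0.04 became -0.10 under upper-quartile scaling and -0.11 with equal totals. At an adjusted p under 0.01 the 26 lower S phase genes became 17 and the 2716 lower genes of all tested became 1753. Rescaling moved the log2 fold changes of all genes by nearly the same amount. The median over all genes tested went from -0.009 to -0.065 under upper-quartile scaling and to -0.075 with equal totals. Why the libraries differ in their totals, and the cause of the other shifts, was not tested. Replicates share only a number: the correlation of deviations was -0.07, 0.03 and -0.06 for numbers 1, 2 and 3, and T3 replicate 3 correlated best with vehicle replicate 1 (0.0946). With the replicate as a block, 5405 genes were called in place of 5851, and the 31 held 4 higher and 2 lower, with Ccnb2, Cenpa and Top2a lost. The median SE of the log2 fold change, 0.04 over the 31 genes and 0.07 over all tested, limits which small changes can be told from 0.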
